A study of Homo sapiens with 12 samples.

Results

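The NF-kB subunits and their feedback inhibitors were followed through 10 genes: the subunits NFKB1, NFKB2, REL, RELA and RELB, the IkB inhibitors NFKBIA, NFKBIB and NFKBIE, and the feedback regulators TNFAIP3 and TNIP1. Members were the probes whose single gene symbol in the platform annotation is one of these 10, which gave 14 of the 47231 probes analysed. A probe counted as detected on an array where its detection value was above 0.99, and probes detected on at least 2 arrays were kept for testing. This left 12 of the 14 probes, among 19263 in all, and each of the 10 genes kept at least 1 probe. The platform annotation names 20046 genes in all. The probes not kept were an NFKB2 probe (ILMN_2247868), detected on 0 of 12 arrays, and a REL probe (ILMN_2124064), detected on 1 of 12, siRNA control 2.

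Illumina bead arrays were used to measure RNA in Caco-2, an epithelial line from a human colorectal tumour, so every group stands for this 1 line. Cells of the plasmid experiment received the empty vector pCMV-Neo (OE control, n = 3) or the SIRT1 expression plasmid pCMV-ENTRY Sirt1 (OE Sirt1, n = 3), and the time from transfection to lysis is not given in the sources used here. Cells of the siRNA experiment received a scrambled siRNA of low GC content (siRNA control, n = 2) or 1 of a pair of SIRT1 siRNAs that do not overlap (KD1, n = 2, and KD2, n = 2), and were lysed after 72 h. No inflammatory stimulus is named for any group, the replicates are described as biological, and the KD2 arrays carry the numbers 2 and 3.

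NF-kB proteins act as dimers that IkB proteins hold in the cytoplasm until the IkB kinase complex marks the IkB for degradation. Freed dimers enter the nucleus and bind kB sites, and among the genes they switch on are several of their own subunits and inhibitors, which makes the pathway self-limiting. In gut epithelium the pathway is known for the response to microbes and cytokines, and SIRT1, an NAD-dependent deacetylase, is known to remove acetyl groups from RELA.

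Because the kB site is the feature by which this family is known to act on its own genes, the start of each member was searched for it in RefSeq windows of build GRCh38.p14, 250 bases before to 50 bases after an annotated start. The sequence searched was the 10-letter kB consensus, on both strands, and no other motif was searched. It occurred in 2075 of 35116 windows (5.91%) and in 1937 of 27305 genes with a window (7.09%). The table held 14 windows for 8 of the members, and 8 of these windows (57.1%) and 7 of the 8 genes (87.5%) had a match. RELA was the gene without a match in its windows, and RELB and NFKBIE were not among the windows used here. Matches lay at position -49 from the start in NFKB1, -42 in TNIP1 and -81 in NFKBIA, the last on the opposite strand. A window of NFKB2 had matches at -107, -106 and -78, of which the first pair overlap on opposite strands. REL (-47 and -46) and NFKBIB (-28 and -27) each had a pair that overlap in the same way, and TNFAIP3 had matches at -67 and -55 on the opposite strand. The 120 bases before the start are shown for the window with matches nearest the start of each gene, for NFKB2 the window with 3 matches, and for RELA a window without one. They are written 5′ to 3′ on the gene's strand with the matches in capitals. The stretches are chr4:102501239-102501358 (+) for NFKB1, chr10:102394458-102394577 (+) for NFKB2, chr2:60881454-60881573 (+) for REL and chr11:65662917-65663036 (-) for RELA. Those of the inhibitors are chr14:35404750-35404869 (-) for NFKBIA, chr19:38899849-38899968 (+) for NFKBIB, chr6:137867139-137867258 (+) for TNFAIP3 and chr5:151081035-151081154 (-) for TNIP1. A match is a description of the letters and not a bound site.
NFKB1: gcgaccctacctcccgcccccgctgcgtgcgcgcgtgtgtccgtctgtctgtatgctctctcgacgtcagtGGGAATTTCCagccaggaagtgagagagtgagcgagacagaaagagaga
NFKB2: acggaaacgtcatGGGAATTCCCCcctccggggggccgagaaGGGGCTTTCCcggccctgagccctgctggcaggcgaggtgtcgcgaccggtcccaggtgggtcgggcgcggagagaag
REL: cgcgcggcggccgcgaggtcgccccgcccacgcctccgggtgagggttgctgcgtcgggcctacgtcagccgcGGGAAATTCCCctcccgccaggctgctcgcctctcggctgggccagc
RELA: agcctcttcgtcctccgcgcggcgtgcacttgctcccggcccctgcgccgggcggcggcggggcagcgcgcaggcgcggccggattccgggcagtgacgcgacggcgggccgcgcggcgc
NFKBIA: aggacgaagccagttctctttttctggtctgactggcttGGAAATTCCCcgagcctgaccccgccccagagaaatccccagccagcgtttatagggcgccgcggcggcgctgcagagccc
NFKBIB: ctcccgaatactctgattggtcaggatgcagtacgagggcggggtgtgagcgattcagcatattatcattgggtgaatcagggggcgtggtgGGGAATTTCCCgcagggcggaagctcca
TNFAIP3: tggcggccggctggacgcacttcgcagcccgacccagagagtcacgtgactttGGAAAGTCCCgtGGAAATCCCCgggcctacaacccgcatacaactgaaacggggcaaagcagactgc
TNIP1: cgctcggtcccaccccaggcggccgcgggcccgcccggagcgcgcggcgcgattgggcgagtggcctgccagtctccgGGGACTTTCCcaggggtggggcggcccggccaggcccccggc

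**Figure D1:**
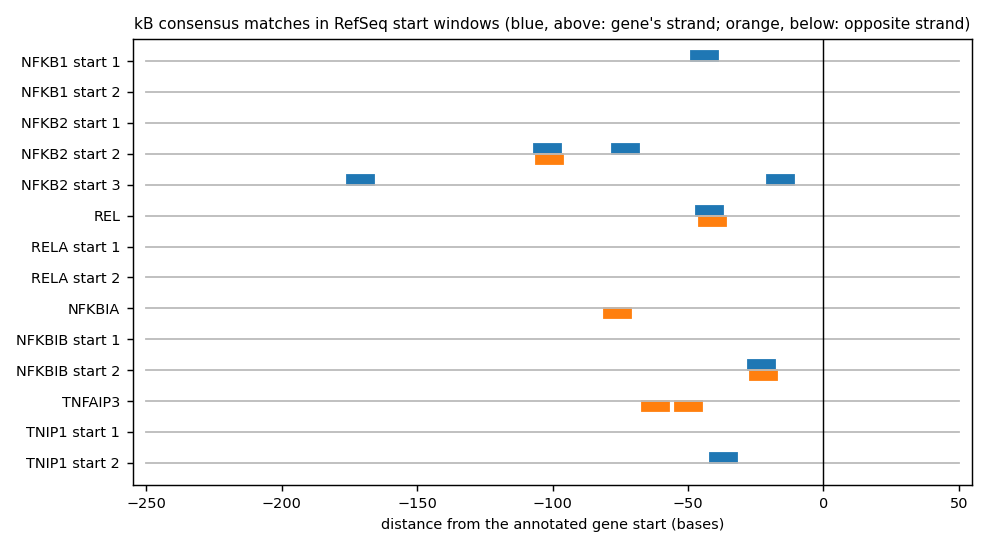
Positions of matches to the kB consensus in the RefSeq windows of 8 members; the x axis is the distance from the annotated start in bases, blue blocks lie on the gene's strand and orange blocks on the opposite strand. Matches sit within the 120 bases before the start except for 1 in an NFKB2 window at -176.

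Each array detected 15345 to 17981 probes (32.5% to 38.1%), with a raw median intensity of 108.6 to 152.7. The OE controls detected 15345 to 15871 probes, and the siRNA controls 17483 and 17981. The dimmest detected probe stood at 5.79 to 5.90 on the OE controls and at 5.51 and 5.44 on the siRNA controls. Detection of probes near background is therefore not on an equal footing in these groups. All 10 epithelial marker genes had a kept probe and 8 were detected on every array, while PTPRC and CD3E of the leukocyte list, DCN of the fibroblast list and CDH5, KDR and VWF of the endothelial list were detected on none. The leukocyte list had 4 of 7 genes on the array kept (CD14, CD68, CD79A and LYZ), of which 3 were detected on every array. The fibroblast list had 5 of 6 (COL1A1, COL1A2, COL3A1, LUM and PDGFRB), all detected on every array, and the endothelial list 1 of 4 (PECAM1). One siRNA array stood apart from its label's experiment: over the 19263 probes KD1 1 was closest to OE Sirt1 3 (r = 0.989), and the members' values that use it are also given without it. In RNA from whole cultures, fewer cells that express a gene and less RNA per cell cannot be told apart.

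SIRT1, the targeted gene, was measured by 1 probe. It averaged 8.73 log2 units (SD 0.21) over the siRNA controls, 7.34 (SD 0.02) over the KD1 arrays and 7.52 (SD 0.49) over the KD2 arrays, n = 2 each. The mean of both siRNAs lay 2.46-fold below the control (log2 fold change -1.30, SE 0.20, limma adjusted p = 0.0448 over all 19263 probes), and KD1 (-1.39, adjusted p = 0.098) and KD2 (-1.21, adjusted p = 0.0656) taken alone did not pass. The call for the mean was lost when any of 11 of the 12 arrays was left out (-1.47 to -1.13 over all 12) and held without KD2 2. With the plasmid the difference was -0.00332 (SE 0.18, adjusted p = 1.00), and the sources used here do not say whether the plasmid holds the sequence this probe reads.

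NFKB1 differed between the SIRT1 siRNAs and was the only member probe to pass the test in any of the 6 comparisons. It encodes p105, the precursor of the DNA-binding subunit p50, and p105 itself can retain other subunits in the cytoplasm. The NFKB1 probe (ILMN_1714965) read 10.48, 10.43 and 10.56 on the OE control arrays, 10.49, 10.58 and 10.42 on the OE Sirt1 arrays, 10.29 and 10.21 on the siRNA control arrays, 10.64 and 10.45 on the KD1 arrays and 9.86 and 9.72 on the KD2 arrays. Both KD2 arrays lay below the other 10, and both KD1 arrays lay above both siRNA controls, so the siRNAs stood on opposite sides of their shared control. By group mean the order was KD1 (10.55), OE Sirt1 (10.50), OE control (10.49), siRNA control (10.25) and KD2 (9.79), and the ranges of the first 3 groups overlap.

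The NFKB1 level was 1.69-fold higher with KD1 than with KD2 (log2 difference 0.76, SE 0.13, 95% interval 0.48 to 1.04, limma adjusted p = 0.0454). In this comparison 1 of 12 member probes passed, against 0.296% of all probes (57, of which 41 were higher with KD1). The same 1 had an unadjusted p under 0.05, as did 10.7% of all. Against the scrambled siRNA the log2 difference was 0.30 with KD1 (SE 0.13, unadjusted p = 0.0397, adjusted p = 0.602) and -0.46 with KD2 (SE 0.13, unadjusted p = 0.00384, adjusted p = 0.189), both measured from the same control arrays. Their mean was -0.08 (adjusted p = 0.854). The SIRT1 probe read 7.34 with KD1 and 7.52 with KD2, a difference of -0.18 (SE 0.23, 95% interval -0.68 to 0.32, adjusted p = 0.830).

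The NFKB1 call lay close to the threshold. It was lost when each of the 12 arrays was left out in turn (0.67 to 0.85, adjusted p 0.0712 to 0.225), and without KD1 1, the array that stood apart, the difference was 0.67 (adjusted p = 0.209). On the arrays of the siRNA experiment alone it was 0.76 with a wider SE of 0.16 (adjusted p = 0.358), since the reported fit takes its spread from the plasmid arrays too. With the replicate number as a block it was 0.62 (adjusted p = 0.652), while the authors' normalised values gave 0.70 (adjusted p = 0.00256). The sign was the same in all 22 settings.

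**Figure D2:**
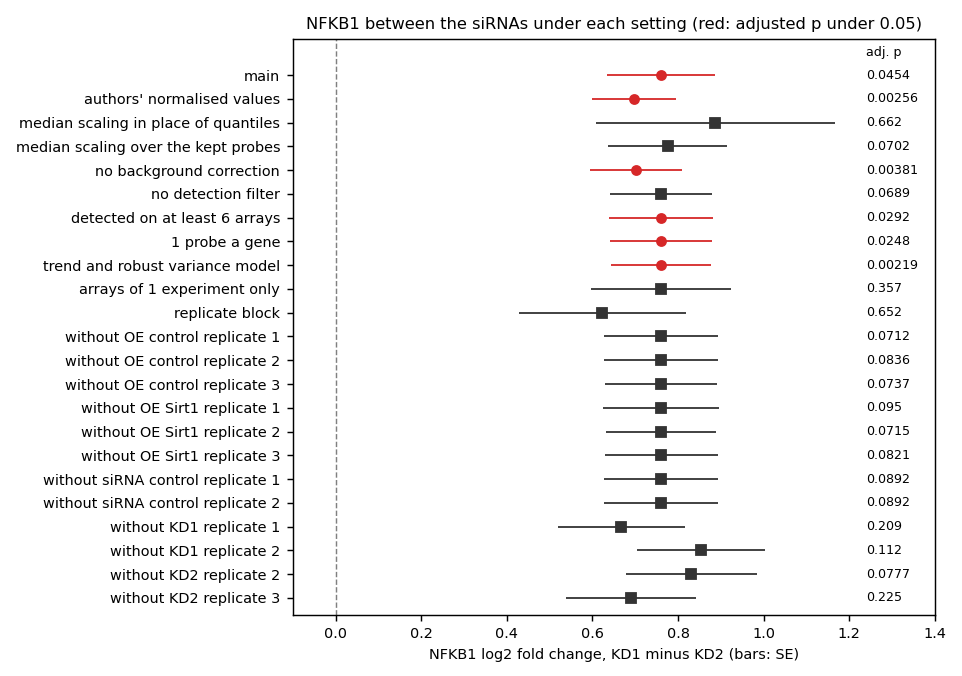
NFKB1 log2 difference between KD1 and KD2 (x axis, KD1 minus KD2) under the reported setting and each alternative, with SE as bars; red circles mark adjusted p under 0.05 and the adjusted p is printed at the right. All values lie between 0.62 and 0.89, and 5 of the 22 alternatives keep the call.

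NFKB2, which encodes p100 and its processed form p52, the subunit of the non-canonical pathway, was read by 3 probes. The NFKB2 probe ILMN_2390859, detected on 10 arrays, read 6.35, 5.95 and 5.82 on OE control, 6.06, 5.70 and 6.37 on OE Sirt1, 7.05 and 6.59 on siRNA control, 6.66 and 7.10 on KD1 and 6.47 and 7.14 on KD2. All 6 siRNA arrays lay above all 6 plasmid arrays, and the arrays without detection were OE control 3 and OE Sirt1 2. The control groups differed by 0.78 (siRNA control minus OE control, SE 0.27, unadjusted p = 0.0146, adjusted p = 0.143), while the values against the matched control were 0.06 for KD1, -0.02 for KD2 and 0.00374 for the SIRT1 plasmid.

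The NFKB2 probe ILMN_1799062, detected on 12 arrays, read 6.35, 5.84 and 6.32 on OE control, 5.81, 6.45 and 6.18 on OE Sirt1, 6.81 and 6.52 on siRNA control, 6.00 and 6.90 on KD1 and 6.33 and 6.78 on KD2. Its groups were less separated, with KD1 1 and KD2 2 among the plasmid arrays. The difference between the controls was 0.50 (SE 0.29, adjusted p = 0.357), and neighbouring groups in the order of means (siRNA control 6.67, KD2 6.56, KD1 6.45, OE control 6.17, OE Sirt1 6.15) overlap throughout. The paired NFKB2 probes correlated at r = 0.66 over the 12 arrays, which share the normalization and the array groups.

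RELA encodes p65, the subunit that carries the main activating domain of the canonical dimer. Its probe (ILMN_1705266) was detected on every array and read 6.39, 6.44 and 6.31 on OE control, 6.24, 6.33 and 6.43 on OE Sirt1, 6.92 and 6.82 on siRNA control, 6.46 and 6.67 on KD1 and 6.57 and 6.77 on KD2. The siRNA controls were the 2 highest arrays of the 12, the SIRT1 siRNA arrays came next, and the plasmid arrays were the 6 lowest. Between the control groups the log2 difference was 0.49 (SE 0.12, 95% interval 0.21 to 0.76, unadjusted p = 0.00242, adjusted p = 0.0651). The RELA values against the scrambled siRNA were -0.30 with KD1 (SE 0.13, unadjusted p = 0.0476, adjusted p = 0.615) and -0.19 with KD2 (SE 0.13, adjusted p = 0.616), and the value for the SIRT1 plasmid was -0.04 (SE 0.11, 95% interval -0.29 to 0.20).

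REL and RELB sat near the detection limit. REL encodes c-Rel, a subunit best known from lymphocytes, and its kept probe (ILMN_1766085) was detected on siRNA control 2 (5.82), KD1 2 (5.83) and KD2 2 (6.10) and on none of the 6 plasmid arrays. Where it was not detected REL read 4.97 to 5.72, and no group of REL was detected in full.

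RELB, the usual partner of p52, was detected by its probe (ILMN_1811258) on both siRNA controls (5.80 and 5.80), KD1 2 (5.58) and KD2 2 (5.68), and on 0 of 6 plasmid arrays. KD1 1 read 5.58 and KD2 3 read 5.03 without detection. OE control 3 read 5.76 without detection, above KD1 2, as its dimmest detected probe stood at 5.90 against 5.51 on KD1 2. With 1 array of each SIRT1 siRNA not detected, the RELB difference from the controls was -0.22 with KD1 (adjusted p = 0.858) and -0.44 with KD2 (SE 0.20, adjusted p = 0.425), and the KD2 value ran from -0.77 to -0.12 over the alternative settings. The OE Sirt1 arrays (5.10 to 5.29) lay below the OE controls (5.41 to 5.76), but RELB was not well above background on any of these 6 arrays, so no fold is given.

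**Figure D3:**
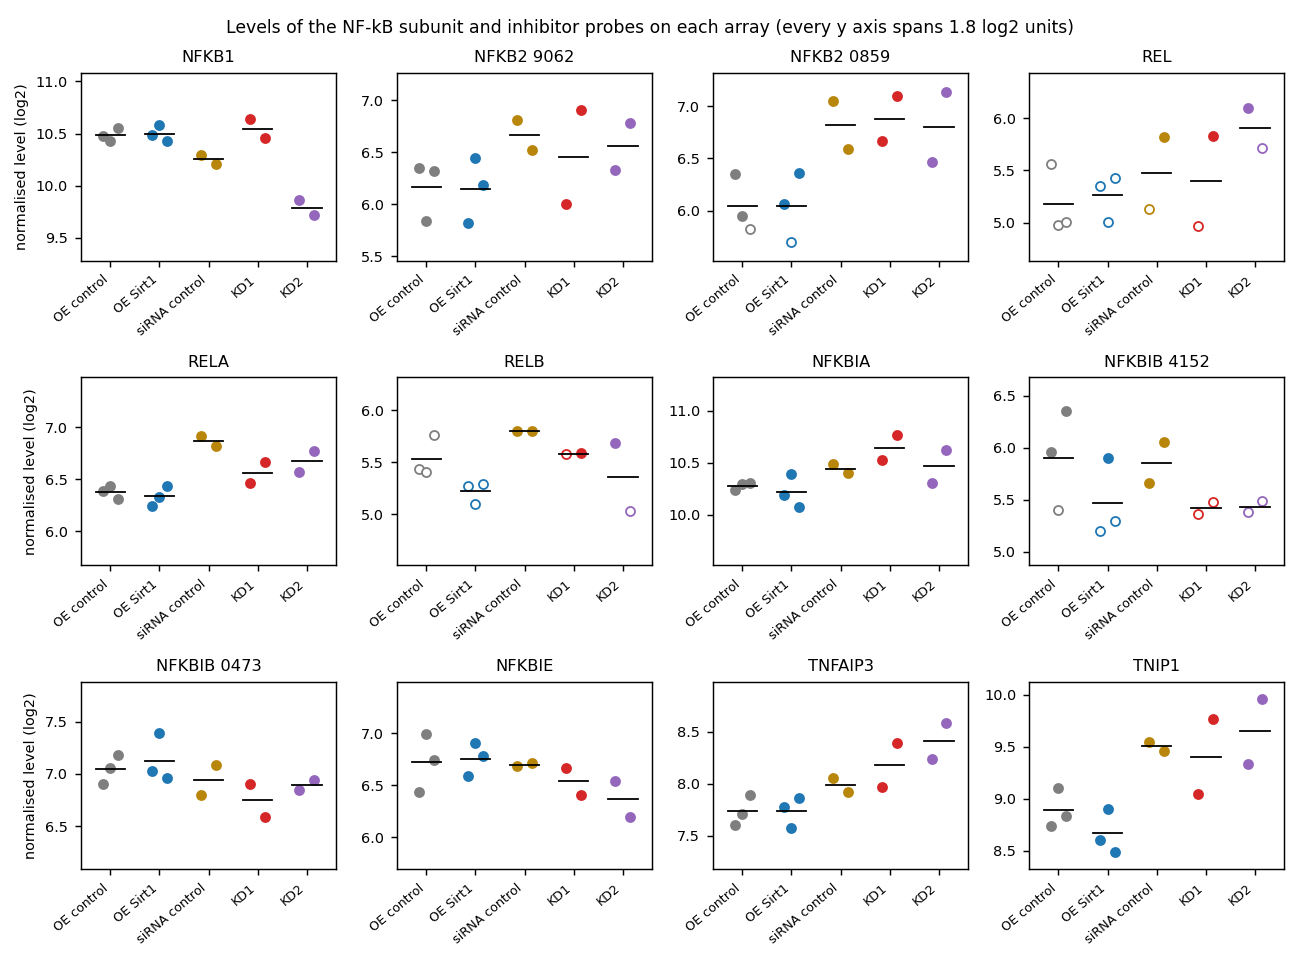
Normalised log2 level (y axis, each spanning 1.8 log2 units) of the 12 kept probes on each array, by group; filled points are detected, open points are not, and the black line is the group mean. The KD2 points of NFKB1 lie below all others, and the siRNA arrays of RELA, TNFAIP3 and NFKB2 ILMN_2390859 lie above the plasmid arrays. The digits after NFKB2 and NFKBIB are the last 4 of the probe name.

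NFKBIA encodes IkB-alpha, the inhibitor that NF-kB resynthesises fastest. The NFKBIA probe (ILMN_1773154) read 10.24, 10.30 and 10.30 on OE control, 10.19, 10.39 and 10.08 on OE Sirt1, 10.48 and 10.40 on siRNA control, 10.52 and 10.76 on KD1 and 10.31 and 10.63 on KD2. Both KD1 arrays lay above both siRNA controls, by a mean of 0.20 (SE 0.15, 95% interval -0.14 to 0.54, adjusted p = 0.815), whereas KD2 (0.03, adjusted p = 0.966) enclosed the controls. The plasmid gave -0.06 (SE 0.13, 95% interval -0.34 to 0.22).

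NFKBIB encodes IkB-beta, an inhibitor that responds more slowly, and was read by 2 kept probes with r = 0.44 between them over the 12 arrays. The probe ILMN_1690473, detected on every array, read 6.91, 7.06 and 7.18 on OE control, 7.03, 7.39 and 6.96 on OE Sirt1, 6.80 and 7.08 on siRNA control, 6.91 and 6.58 on KD1 and 6.85 and 6.94 on KD2. Neighbouring groups overlap in the order OE Sirt1 (7.13), OE control (7.05), siRNA control (6.94), KD2 (6.89) and KD1 (6.75), and the differences from the scrambled siRNA were -0.19 for KD1 and -0.05 for KD2.

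The NFKBIB probe ILMN_1674152 was detected on OE control 1 (5.96) and 3 (6.35), OE Sirt1 2 (5.90) and both siRNA controls (5.66 and 6.06), and on 0 of 4 SIRT1 siRNA arrays, which read 5.36 to 5.49. With each undetected array held at the dimmest level of any probe detected there, or at its own level if higher, it was at least 1.22-fold lower with KD1 (adjusted p = 0.780) and at least 1.16-fold lower with KD2 (adjusted p = 0.623) than in the control. The other NFKBIB probe did not show this separation.

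NFKBIE encodes IkB-epsilon. Its probe (ILMN_1717313) read 6.43, 7.00 and 6.74 on OE control, 6.58, 6.90 and 6.78 on OE Sirt1, 6.69 and 6.71 on siRNA control, 6.67 and 6.41 on KD1 and 6.54 and 6.19 on KD2. All 4 SIRT1 siRNA arrays lay below both scrambled controls but within or below the range of the plasmid arrays, which spread more widely. The NFKBIE differences were -0.16 with KD1 (SE 0.20, adjusted p = 0.904) and -0.33 with KD2 (SE 0.20, adjusted p = 0.554).

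TNFAIP3 encodes A20, a ubiquitin-editing enzyme that is induced by NF-kB and shuts signalling down upstream of the IkB kinases. The TNFAIP3 probe (ILMN_1702691) read 7.61, 7.71 and 7.89 on OE control, 7.77, 7.57 and 7.86 on OE Sirt1, 8.05 and 7.92 on siRNA control, 7.97 and 8.39 on KD1 and 8.23 and 8.58 on KD2. The 6 siRNA arrays lay above the 6 plasmid arrays, and KD2 lay above its control on both arrays. That KD2 difference was 0.42 (SE 0.19, 95% interval 0.01 to 0.84, unadjusted p = 0.0438, adjusted p = 0.407), and KD1, whose lower array lay between the controls, gave 0.19 (adjusted p = 0.869). The plasmid groups had the same mean to 2 decimals, 7.74 (SDs 0.14 and 0.15, n = 3 each), with a 95% interval of -0.34 to 0.33 for their difference.

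TNIP1 encodes ABIN-1, an adaptor that binds A20 and ubiquitin chains. Its probe (ILMN_1703650) read 8.74, 9.11 and 8.83 on OE control, 8.60, 8.90 and 8.49 on OE Sirt1, 9.55 and 9.46 on siRNA control, 9.04 and 9.77 on KD1 and 9.34 and 9.96 on KD2. Every siRNA array lay above every plasmid array except KD1 1, which read below OE control 2. The control groups differed by 0.61 (SE 0.24, unadjusted p = 0.0291, adjusted p = 0.195), and the differences from the matched control were -0.23 for the plasmid, -0.10 for KD1 and 0.14 for KD2 (adjusted p from 0.879 to 1.00).

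**Figure D4:**
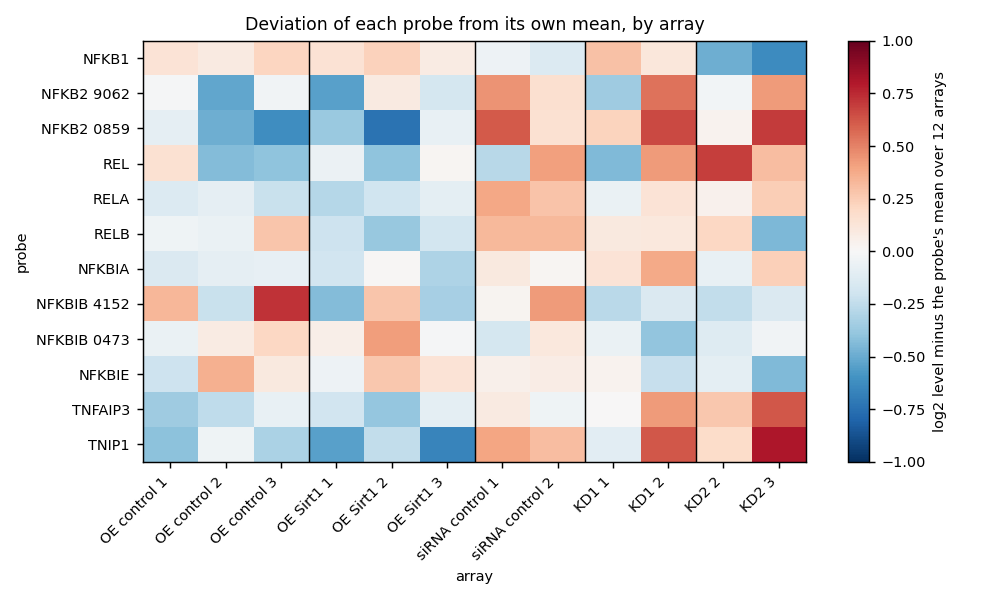
Log2 level of each kept probe minus its own mean over the 12 arrays (colour, log2 units), by probe and array, with lines between the 5 groups. KD2 2 and KD2 3 are low for NFKB1, and KD1 2 and KD2 3 are high for TNIP1 and TNFAIP3.

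With SIRT1 overexpression no member passed. Of the 12 probes 0 passed, as did 0% of all probes, 0 had an unadjusted p under 0.05 (3.89% of all probes did), and the smallest adjusted p over all probes was 0.560. Over the 8 member probes detected on all 6 plasmid arrays, log2 differences ran from -0.23 (TNIP1) to 0.08 (NFKBIB ILMN_1690473). The median of the 12 was -0.00943 against 0.01 over all probes. The groups did not overlap for 1 of 12 member probes (8.33%), the undetected RELB, against 8.54% of all probes. The median SE over the members was 0.16.

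With the SIRT1 siRNAs no direction was shared by all members. With KD1 0 of 12 probes passed, against 0.0156% of all probes, and 2 had an unadjusted p under 0.05 (NFKB1 and RELA), as did 8.03% of all. The KD1 arrays did not overlap the controls for 6 of 12 probes (50%, against 37.6% of all), with NFKB1 and NFKBIA on the high side and RELA, RELB, NFKBIE and NFKBIB ILMN_1674152 on the low side. With KD2 0 of 12 passed, against 0.301% of all probes, and 2 had an unadjusted p under 0.05 (NFKB1 and TNFAIP3), as did 11.8% of all. Here too 6 of 12 did not overlap (50%, against 42.3% of all), TNFAIP3 above its control and NFKB1, RELA, RELB, NFKBIE and NFKBIB ILMN_1674152 below. In both counts RELB and NFKBIB ILMN_1674152 lie near background.

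For the mean of both siRNAs 0 of 12 members passed, against 0.114% of all probes, and 0 had an unadjusted p under 0.05 (9.54% of all did). All 4 SIRT1 siRNA arrays lay below both controls for RELA, RELB, NFKBIE and NFKBIB ILMN_1674152, which is 33.3% of the member probes against 16.6% of all probes with groups apart. Of these 4 arrays, NFKBIB ILMN_1674152 was detected on 0 and RELB on 2, so both lie near background. The other NFKBIB probe, ILMN_1690473, was not apart (-0.12). The median log2 difference of the members was -0.13 with KD1, -0.08 with KD2 and -0.10 for the mean, while over all probes these medians lay between -0.01 and 0.01. Between the siRNAs the groups were apart for NFKB1 alone, 8.33% of the members against 35.9% of all probes. These comparisons share the 2 control arrays.

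Without KD1 1, a single KD1 array is set against the controls, and several member values moved. NFKB2 ILMN_1799062 went from -0.22 to 0.23, TNIP1 from -0.10 to 0.26 and REL from -0.07 to 0.36, while TNFAIP3 went from 0.19 to 0.40. The others kept their sign, with NFKB1 at 0.20, NFKBIA at 0.32, RELA at -0.20, RELB at -0.22, NFKBIE at -0.29 and the second NFKB2 probe at 0.28. The NFKBIB probes read -0.36 (ILMN_1690473) and -0.37 (ILMN_1674152), and 0 of the 12 passed (adjusted p 0.674 to 0.893). With KD1 2 left out instead, TNFAIP3 was at -0.02, TNIP1 at -0.46 and NFKB2 ILMN_1799062 at -0.67.

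The remaining KD1 array lay outside the control range for 12 of 12 members, against 73.2% of all probes. For the mean of both siRNAs without KD1 1 the groups were apart for 5 of 12 (41.7%, against 27.4% of all), since TNFAIP3 then lay above both controls on all 3 arrays (0.41, SE 0.16, adjusted p = 0.399). The members apart below the controls were again RELA (-0.20), RELB (-0.33), NFKBIE (-0.31) and NFKBIB ILMN_1674152 (-0.40). Of these, RELB and NFKBIB ILMN_1674152 lie near background. Between the siRNAs 4 of 12 were apart (33.3%, against 63.3% of all), NFKB1, NFKB2 ILMN_1799062 and NFKBIA above KD2 and NFKBIB ILMN_1690473 below. Apart from NFKB1 these differences ran from -0.31 (NFKBIB ILMN_1690473) to 0.34 (NFKB2 ILMN_1799062).

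**Figure D5:**
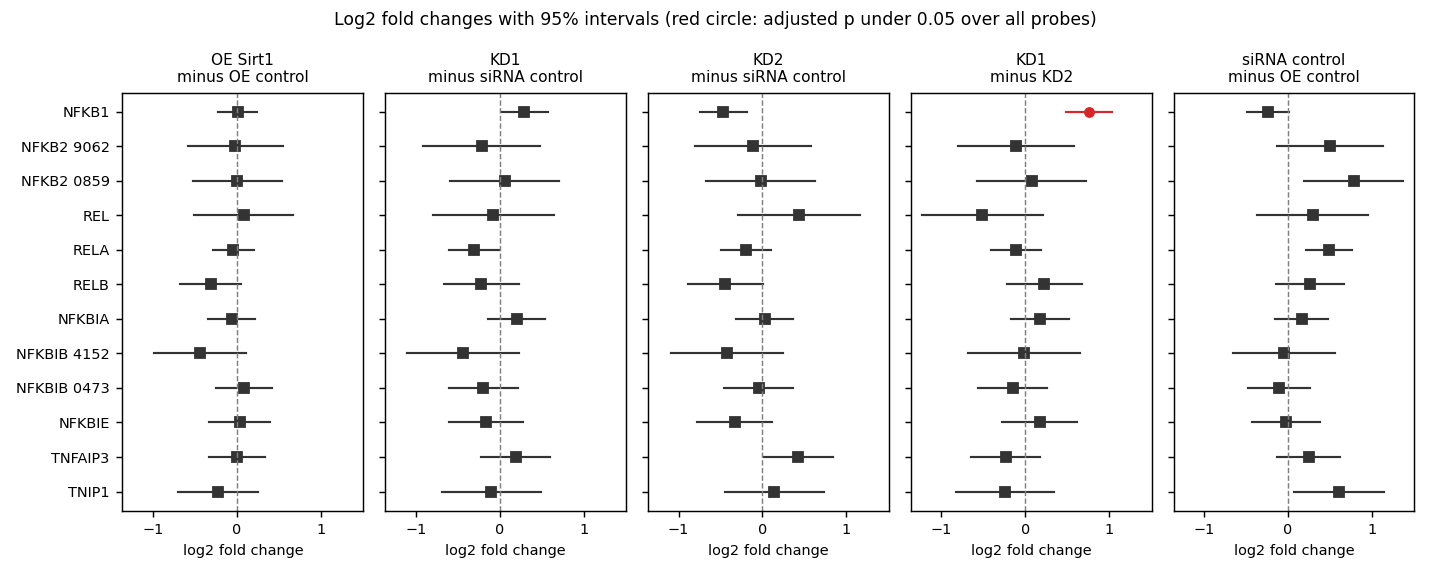
Log2 fold change (x axis) of each kept probe in 5 comparisons, with 95% intervals from the limma fit; the red circle marks adjusted p under 0.05 over all probes. NFKB1 between the siRNAs, at 0.76, is the only value marked, REL, RELB and NFKBIB ILMN_1674152 lie near background on many arrays, and the largest values between the controls are those of NFKB2 ILMN_2390859 and TNIP1.

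Several members were higher in the siRNA experiment than in the plasmid experiment on every array, though none passed the test. Between the scrambled siRNA and the empty vector, where agent, experiment and time cannot be told apart, 0 of 12 member probes passed against 2.46% of all probes (473), and 3 had an unadjusted p under 0.05 (NFKB2 ILMN_2390859, RELA and TNIP1), as did 20.1% of all. The control groups did not overlap for 8 of 12 member probes (66.7%, against 41.1% of all probes), 7 of them higher in the siRNA control and 1, NFKB1, lower. The 7 were both kept NFKB2 probes, RELA, RELB, NFKBIA, TNFAIP3 and TNIP1. The median difference was 0.26 over the member probes and -0.01 over all probes. REL and RELB were detected on none of the 6 plasmid arrays and passed the detection filter only through siRNA arrays. Both enter this median, and RELB enters the count. All 6 siRNA arrays lay apart from all 6 plasmid arrays for NFKB2 ILMN_2390859, RELA and TNFAIP3, which is 25% of the members against 9.05% of all probes. RELA passed in 3 of 20 alternative settings of this comparison (smallest adjusted p 0.0242, under a scaling that also shifted the median of all probes by 0.33). Its difference fell to 0.21 with the authors' values (adjusted p = 0.130) and 0.24 with no background correction (adjusted p = 0.125). That of NFKB2 ILMN_2390859 ran from 0.32 to 1.17 over the settings, so the size of these differences depends on the processing.

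Arrays of the same siRNA also differed from each other. KD1 2 read above KD1 1 at 9 of the 12 member probes (75%, against 47.4% of all probes), with NFKB2 ILMN_1799062 (6.90 and 6.00), REL (5.83 and, undetected, 4.97) and TNIP1 (9.77 and 9.04) furthest apart. KD2 3 read above KD2 2 at 8 of 12 (66.7%, against 48.1%), again with TNIP1 (9.96 and 9.34) among them. Of the scrambled controls, siRNA control 2 read above siRNA control 1 at 5 of 12 (41.7%, against 50.4%). Whether these shares differ between the pairs of arrays was not tested.

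Elsewhere in the pathway SIRT1 was the only listed gene to pass in a comparison with a matched control or between the siRNAs. Of the IkB kinase complex and its upstream signalling genes, 27 probes of 22 of 26 listed genes were kept. With the plasmid, KD1, KD2 or the mean of both siRNAs 0 passed. In that order 0, 1, 4 and 3 had an unadjusted p under 0.05, as did 3.89%, 8.03%, 11.8% and 9.54% of all probes. The median of these probes was -0.11 with KD1 and -0.12 with KD2. The lowest unadjusted p with KD1 belonged to TRADD, the adaptor of TNF receptors, at 1 of its 2 kept probes (ILMN_1793831). This probe was detected on 2 of the 12 arrays, both siRNA controls, and so passed the detection filter only through the group where it is high. With KD1 its mean was at least 1.15-fold lower, which is a description only. The limma adjusted p of 0.418 belongs to the log2 difference of levels as read, -0.66, and not to this fold. The other TRADD probe (ILMN_1765851), detected on every array, gave -0.42 (adjusted p = 0.692). With KD2 the lowest unadjusted p belonged to RBCK1, a subunit of the linear ubiquitin ligase, at 1 of its 2 kept probes (-0.45, SE 0.14, adjusted p = 0.254). The other RBCK1 probe gave -0.30 (adjusted p = 0.596). MYD88, the adaptor of Toll-like and IL-1 receptors, followed (-0.48, SE 0.17, adjusted p = 0.299). Between the controls TRAF5, an adaptor of TNF receptor family members, passed with a log2 difference of 1.04 (siRNA control higher, SE 0.24, adjusted p = 0.0486). It was detected on 1 of the 3 OE controls, so the size rests partly on values near background, and the call was lost when any of 8 of the 12 arrays was left out.

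Receptors that activate NF-kB were sparsely detected, with 9 probes of 8 of 19 listed genes kept, and 0 passed in any comparison. At most 1 had an unadjusted p under 0.05, against 3.89% to 20.1% of all probes. TNFRSF1B, a receptor for TNF, was at -0.81 with KD1 (SE 0.29, unadjusted p = 0.0175, adjusted p = 0.484), and the median of the 9 probes was -0.21 there and -0.02 with KD2. Of the other IkB proteins and negative regulators, 15 probes of 14 of 19 genes were kept and 0 passed against a matched control. At most 1 had an unadjusted p under 0.05 there, against 3.89% to 11.8% of all probes. Between the siRNAs 0 of these 15 passed and 6 had an unadjusted p under 0.05, against 2060 of all 19263 probes. BCL3, a nuclear IkB protein that works with p50 and p52, was 1.81-fold higher in the siRNA control than in the vector control (log2 difference 0.86, SE 0.15, adjusted p = 0.0269). Its call was lost without any 1 of the 5 control arrays (0.72 to 1.00 over all arrays left out, adjusted p up to 0.193) and held without any of the other 7.

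Enzymes and binding partners that modify RELA gave 13 probes of 10 of 14 genes. With the mean of both siRNAs 1 passed, against 0.114% of all probes, and it was SIRT1, the gene that the siRNAs target. With the plasmid 0 did, as did 0% of all probes. For the plasmid, KD1, KD2 and the mean, 0, 1, 3 and 2 had an unadjusted p under 0.05. The shares of all probes were 3.89%, 8.03%, 11.8% and 9.54%. SIRT1 is among the probes counted for KD1, KD2 and the mean. HDAC3, a deacetylase of RELA, was at -0.61 with KD2 (SE 0.18, unadjusted p = 0.00623, adjusted p = 0.221) and 0.58 higher with KD1 than with KD2 (adjusted p = 0.272). SIRT2, another deacetylase of RELA, passed between the controls at 1 of its 2 kept probes (ILMN_2398711, log2 difference 0.84, siRNA control higher, SE 0.18, adjusted p = 0.0426), which was detected on 1 of the 3 OE controls. The other SIRT2 probe, detected on every array, gave 0.43 (adjusted p = 0.304). The call of the first SIRT2 probe was lost when any of 8 of the 12 arrays was left out.

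Target genes outside the members gave 27 probes of 22 of 36 genes, and 0 passed in any of the 6 comparisons. An unadjusted p under 0.05 was found for 4 with each siRNA, 6 between the controls and 0 with the plasmid. The shares of all probes were 8.03% with KD1, 11.8% with KD2, 20.1% between the controls and 3.89% with the plasmid. CXCL1, a neutrophil chemokine, read 5.22 and 5.15 without detection in the siRNA controls, 6.24 and 6.35 with KD1, and 5.54 (not detected) and 6.28 with KD2. The CXCL1 probe was detected on 3 of the 12 arrays, all of them with a SIRT1 siRNA. It therefore passed the detection filter only through groups where it is high. Its mean was at least 1.76-fold higher with KD1 than in the control, which is a description only. The limma adjusted p of 0.145 belongs to the log2 difference of levels as read, 1.11, and not to this fold. F3, which encodes tissue factor, was at 1 of its 2 kept probes at 0.72 with KD1 (SE 0.22, adjusted p = 0.397) and 0.74 with KD2 (SE 0.22, adjusted p = 0.225), from the same control arrays, and at the other (ILMN_1797009) at 0.11 and 0.25 (adjusted p = 0.968 and 0.816). BCL2L1, an inhibitor of apoptosis, was at -0.56 with KD2 at 1 of its 2 kept probes (SE 0.16, adjusted p = 0.221) and at -0.21 at the other (ILMN_1654118, adjusted p = 0.690). Without KD1 1, which leaves a single KD1 array, the KD1 values were 1.16 for CXCL1, 0.87 for the first F3 probe and -0.79 for the first TRADD probe. Those of CXCL1 and of the TRADD probe rest on undetected levels in the control and with KD1, respectively. Between the controls 22 of the 27 probes lay above 0 with a median of 0.20, against a median of -0.01 over all probes. The lowest unadjusted p there belonged to TNFAIP8 (0.92, SE 0.22, adjusted p = 0.0539) and the chemokine gene CCL20 (1.60, SE 0.38, adjusted p = 0.0564).

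Genes with the most similar pattern over the 12 arrays were found by Pearson's r of log2 levels for the member's brightest kept probe, as a description of arrays that fall into 5 groups and share the normalization. ANXA7 was nearest to NFKB1 (r = 0.963), C17orf58 to NFKB2 (0.961), ISG20 to RELA (0.978), CLINT1 to REL (0.911) and SPATA2L to RELB (0.857). For the inhibitors these were MTFP1 for NFKBIA (0.922), CCDC85C for NFKBIB (0.894), NIPA2 for NFKBIE (0.907), CEMIP for TNFAIP3 (0.964) and TSPYL2 for TNIP1 (0.957). Of the genes found, CEMIP and NIPA2 were each detected on 7 of the 12 arrays and the others on all 12. Of the members' own probes, REL was detected on 3 arrays, RELB on 4 and NFKB2 on 10. The r of REL and RELB thus rest largely on levels near background. No member was the nearest gene of another.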

How the data were processed

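Raw intensity values for 47323 probes were deposited by the authors with no normalization, each beside a detection p-value that the deposited table stores as 1 minus p (rank correlation with intensity at least 0.9845 on each array). The authors also deposited normalised log2 values, whose method the sources used here do not give. The series value table equals them (largest difference 0) and holds 47231 probes. Per the submitters' processing notes, arrays were read with GenomeStudio 2010.1.

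For the 47231 probes, neqc (limma 3.58.1, R 4.3.3, offset 16) corrected the background from the detection column, equalised quantiles and took log2. Probes detected (value above 0.99) on at least 2 arrays were kept. One limma model with a mean per group was fitted to all 12 arrays (7 residual degrees of freedom, prior 3.54), tested two-sided with Benjamini-Hochberg adjustment over all 19263 kept probes at a threshold of 0.05. The fit was tested on simulated data. With 2 or 3 arrays per group, p-values measure the spread between these arrays, and their number limits the precision. Same-numbered arrays did not pair throughout, so no block was used in the reported values. The r of their deviations from group means was -0.15, -0.11 and 0.05 in the plasmid experiment. It was 0.0077 for siRNA control and KD1, 0.14 for siRNA control 2 and KD2 2, and -0.26 for KD1 2 and KD2 2. In a group of 2 arrays the deviations mirror each other. Each siRNA r is therefore 1 value, whichever arrays are paired, apart from its sign.

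Symbols come from the platform annotation: 30113 probes have 1 symbol and 17118 have none or several, and checking the members against RefSeq changed 0. Every member probe is reported. Of a pathway list, the genes that passed are named, or the 2 with the smallest unadjusted p, and not every comparison is described. The nearest gene by pattern is the one with the highest r. The members and lists were chosen with earlier results of these data known. Alternatives were the authors' values, other scaling, background correction, filters, probe choice, variance model, fewer arrays and a replicate block.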

Additional observations from a re-analysis of the deposited data

Results flagged for a closer look

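NFKB1 stood out because the SIRT1 siRNAs gave different values by the test of the difference itself. KD1 minus KD2 was 0.76 log2 units (SE 0.13, adjusted p = 0.0454 by limma over 19263 probes), both KD1 arrays lying above and both KD2 arrays below the shared scrambled controls. The SIRT1 levels of the same arrays were 7.35 and 7.33 with KD1 and 7.87 and 7.18 with KD2. The part of these SIRT1 levels in the difference was not tested.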

How the results depend on the processing

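The members' values were recomputed 1530 times under alternative settings, and 1507 kept their side of the threshold. Of the rest 6 passed newly and 17 lost the call. In all, 95 changed sign while never called, and 0 reversed. As reported, 1 member value was called, NFKB1 between the siRNAs, so most of the 1507 were uncalled values that stayed uncalled. The 17 losses were all of NFKB1, which kept its call in 5 of 22 settings. The count of member probes called between KD1 and KD2 went from 1 to 0 with median scaling (NFKB1 at 0.89, adjusted p = 0.663), with median scaling over the kept probes, an alternative added after seeing the data (0.78, adjusted p = 0.0702), with no detection filter (0.76, adjusted p = 0.0689), on the arrays of the siRNA experiment alone (0.76, adjusted p = 0.358) and with the replicate block (0.62, adjusted p = 0.652). Leaving out 1 array at a time gave 0.67 to 0.85 and a count of 0 for each array. Between the controls the count of member probes called went from 0 to 4 with median scaling (RELA, TNIP1 and both NFKB2 probes), and to 1, RELA, with detection on at least 6 arrays or 1 probe a gene. Median scaling moved the median of all probes by 0.25 with the plasmid, -0.21 with KD1, -0.31 with KD2, 0.09 between the siRNAs and 0.33 between the controls. The replicate block changed no other call of a member, and SIRT1 under the mean of both siRNAs lost its call there (-1.16, adjusted p = 0.325), on the siRNA arrays alone (adjusted p = 0.456), with no detection filter (0.078) and with median scaling over the kept probes (-1.29, adjusted p = 0.0505). Over all settings the probes called in all ran from 0 to 64 with KD1 (reported 3), 0 to 210 with KD2 (58), 0 to 85 for their mean (22), 0 to 166 between the siRNAs (57) and 0 to 1536 between the controls (473), and were 0 throughout for the plasmid. No slide is named in the files, so a slide block was not run. REL, RELB and NFKBIB ILMN_1674152 lie near background, which limits what their levels can show. The causes of these shifts were not tested.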

Other observations

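NFKBIZ, which encodes IkB-zeta, an atypical IkB protein of the nucleus, read 8.15 and 8.29 in the siRNA controls, 8.84 and 8.48 with KD1 and 8.05 and 7.85 with KD2, and 8.34 to 8.63 on the plasmid arrays. As with NFKB1, both KD1 arrays lay above and both KD2 arrays below the scrambled controls. The difference between the siRNAs was 0.71 (SE 0.16, limma adjusted p = 0.113), which did not pass. Without KD1 1, which leaves a single KD1 array, the NFKBIZ difference was 0.52. The KD1 and KD2 arrays did not overlap for 35.9% of all probes. N4BP1, a negative regulator of NF-kB signalling, read 6.88 and 6.80 in the siRNA controls, 6.82 and 6.53 with KD1 and 6.23 and 5.91 with KD2. Its KD2 arrays were the 2 lowest of the 12, with a difference of -0.77 from the control (SE 0.15, adjusted p = 0.0754) that did not pass. N4BP1 is named for the smallest unadjusted p with KD2 among the 15 kept probes of its list. The KD2 arrays did not overlap the controls for 42.3% of all probes.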
